A study of Mus musculus with 16 samples.

Results

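The 32 genes described here carry glucose into brain cells, break it down to pyruvate, turn pyruvate into lactate and back, move lactate across membranes, let pyruvate into the mitochondrion and store glucose as glycogen. They were chosen by symbol from the known pathway, with no threshold on their values, out of 28683 genes in the count tables. All 32 were found. They comprise 2 glucose transporters, 15 enzymes of the glycolytic chain, 2 lactate dehydrogenase subunits, 3 monocarboxylate transporters, 2 enzymes that set the level of the activator of phosphofructokinase, 5 genes of the pyruvate dehydrogenase step and 3 genes of glycogen metabolism.

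The hypothalamus with the preoptic area of 16 female mice was dissociated with papain and sequenced by Drop-seq, which captures single cells in droplets and counts unique molecular identifiers (UMIs) at the 3' ends of transcripts, 1 library per mouse. Mice were 8 to 10 weeks old at the start, of mixed CD-1 and 129P2 background, and received corn oil or tamoxifen at 0.1 mg/kg under the skin daily for 28 days, with tissue taken 2 h after the last injection. All mice carried the floxed allele of *Esr1*, the gene of estrogen receptor alpha; the *Esr1* cKO mice also carried Cre driven by *Nkx2-1* from a BAC transgene, and the littermates without Cre are called wild-type. There were 3 wild-type mice on oil, 5 wild-type mice on tamoxifen, 4 *Esr1* cKO mice on oil and 4 *Esr1* cKO mice on tamoxifen. Cre under *Nkx2-1* acts only in cells of that lineage, so cells outside it keep a working *Esr1*. *Esr1* in neurons had 44.1 to 86.5 CPM in mice without Cre and 17.1 to 73.9 CPM in those with Cre; tags at the 3' end lie outside the deleted exon and do not check the deletion.

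The 16 libraries held 2634253 to 8038158 UMIs, and 55675 cells passed the filters, with a median of 563 to 819 UMIs per cell and library. Levels are given as CPM, the UMIs of a gene per 1000000 UMIs of a cell type in a mouse, so they are shares of the RNA counted and not amounts per cell. At 3' ends a transcript is counted once whatever its length, but capture differs between genes, so levels of different genes are not ranked. Clusters were formed with the 32 genes left out and named from other markers as neurons, astrocytes, oligodendrocytes, polydendrocytes, endothelial cells, mural cells, fibroblasts, microglia and ependymal cells, with 195 cells unnamed. The ependymal cluster also held choroid plexus markers, and the microglia cluster neutrophil and perivascular macrophage markers. The endothelial cluster held hemoglobin genes and 7 of the 9 mural markers beside 7 of its own 7. The part of mural cells in the endothelial levels was not tested. The libraries S10 (wild-type oil replicate 3) and S11 (*Esr1* cKO tamoxifen replicate 3) stood apart on the first principal component, which held 55.1% of the variance, at 129 and 124 against -44.4 to -5.65 in the other 14; their deposited tables also began at 100 genes per barcode, not at 20. The libraries S13 to S16 shared 303 to 359 cell barcodes between any pair, 8.11% to 10.8% of the smaller library, and of 2205 shared pairs in all libraries 95.8% had the same cell type against 15.2% given by the type shares. Cells with a shared barcode numbered 1717, or 3.08% of all. Values without them, and without S13 to S16, are given with the processing alternatives.

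Glucose enters the brain across the endothelium through the transporter GLUT1, encoded by *Slc2a1*, and enters neurons through GLUT3, encoded by *Slc2a3*. Glycolysis splits each glucose into pyruvate by a chain of enzymes that mostly exist as isozymes, near-relatives made in different tissues, such as aldolase A and C or enolase 1 and 2. Pyruvate either enters the mitochondrion through pyruvate dehydrogenase, which the kinases PDK1 and PDK2 switch off, or is reduced to lactate, which leaves and enters cells through the monocarboxylate transporters. Astrocytes are the main store of glycogen in the brain, and the transfer of their lactate to neurons is a long-discussed idea in brain energy metabolism.

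The promoters of 3 of these genes are shown because their genes had 1 annotated start in RefSeq and levels that separated 1 cell type from all others in every mouse, as described below: *Slc2a1* in endothelial cells, *Hk2* in microglia and *Eno2* in neurons. These genes were chosen after their values were seen. Each window runs 5' to 3' on the gene's own strand from 250 bases before the start to 50 after it, in RefSeq on GRCm38.p6. Capitals mark ACGTG, the core bound by hypoxia-inducible factors, or CACGT, the same letters on the other strand; both are also part of CACGTG, the E-box. *Slc2a1* lies on the plus strand at chr4:119108495-119108794, *Hk2* on the minus strand at chr6:82774405-82774704 and *Eno2* on the minus strand at chr6:124769624-124769923.
Slc2a1: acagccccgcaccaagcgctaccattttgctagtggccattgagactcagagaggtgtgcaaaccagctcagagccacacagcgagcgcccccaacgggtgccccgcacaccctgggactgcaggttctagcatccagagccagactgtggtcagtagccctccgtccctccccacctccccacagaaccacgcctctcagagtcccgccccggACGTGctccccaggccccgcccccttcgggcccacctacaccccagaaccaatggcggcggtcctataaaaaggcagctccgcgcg
Hk2: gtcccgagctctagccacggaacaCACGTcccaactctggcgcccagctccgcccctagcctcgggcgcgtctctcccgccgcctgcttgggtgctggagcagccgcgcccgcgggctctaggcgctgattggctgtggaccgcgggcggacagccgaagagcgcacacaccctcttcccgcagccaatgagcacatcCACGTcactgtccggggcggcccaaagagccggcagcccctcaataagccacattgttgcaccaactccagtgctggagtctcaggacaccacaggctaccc
Eno2: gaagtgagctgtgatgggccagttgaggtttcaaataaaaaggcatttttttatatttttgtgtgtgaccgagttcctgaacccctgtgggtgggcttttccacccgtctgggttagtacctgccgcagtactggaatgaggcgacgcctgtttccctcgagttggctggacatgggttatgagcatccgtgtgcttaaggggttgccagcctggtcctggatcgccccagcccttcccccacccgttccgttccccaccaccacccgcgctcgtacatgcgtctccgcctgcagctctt
The *Slc2a1* window held 1 match, the *Hk2* window 2 and the *Eno2* window 0. Of the 32 genes, 30 had a window in RefSeq and 19 had at least 1 window with a match. Over windows, 23 of 46 (50%) held a match, against 19.6% of 32851 windows of all genes. A match is a run of letters and not evidence that a factor bound there.

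Each gene was first compared between a cell type and all other kept cells of the same mouse, with the library as a block, by edgeR's quasi-likelihood test with Benjamini-Hochberg adjustment over all genes tested. A gene is called higher or lower where the adjusted p is under 0.05 and the log2 fold change is at least 1 in size. *Slc16a3*, the lactate exporter MCT4, had 235 UMIs in all and passed the filter on low counts in no type; it was highest in microglia, at 4.03 to 33.8 CPM. Of all 32 genes, 17 were higher in 1 type, 4 in 2 types and 2 in 3 types. These 23 are 74.2% of the 31 tested in some type, where 64.4% of 13602 genes tested were higher in at least 1 type, so the share lies near this background. Of all genes, 44.5% were higher in 1 type, 15.4% in 2 and 3.97% in 3. Beside *Slc16a3*, those higher in no type were *Hk1*, *Gpi1*, *Pfkl*, *Pgk1*, *Pkm*, *Pdha1*, *Pdhb* and *Dlat*, which code for the first hexokinase, common glycolytic enzymes and the subunits of pyruvate dehydrogenase. Several of these still had an order. *Hk1* (88.8 CPM in neurons on average, 65.5 in ependymal cells), *Pkm* (271 and 194) and *Dlat* (121 in neurons, 81.3 in astrocytes) were higher in neurons than in the next type in 16 of 16 mice, although the ranges of *Hk1* and *Pkm* overlapped. *Gpi1* (226 in neurons, 189 in mural cells) was higher in neurons in 10 of 16 mice and *Pdhb* (103 in neurons, 89.1 in polydendrocytes) in 13. *Pfkl* and *Pgk1* were highest in ependymal cells and *Pdha1* in fibroblasts, each with a range that overlapped the next type.

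**Figure D1:**
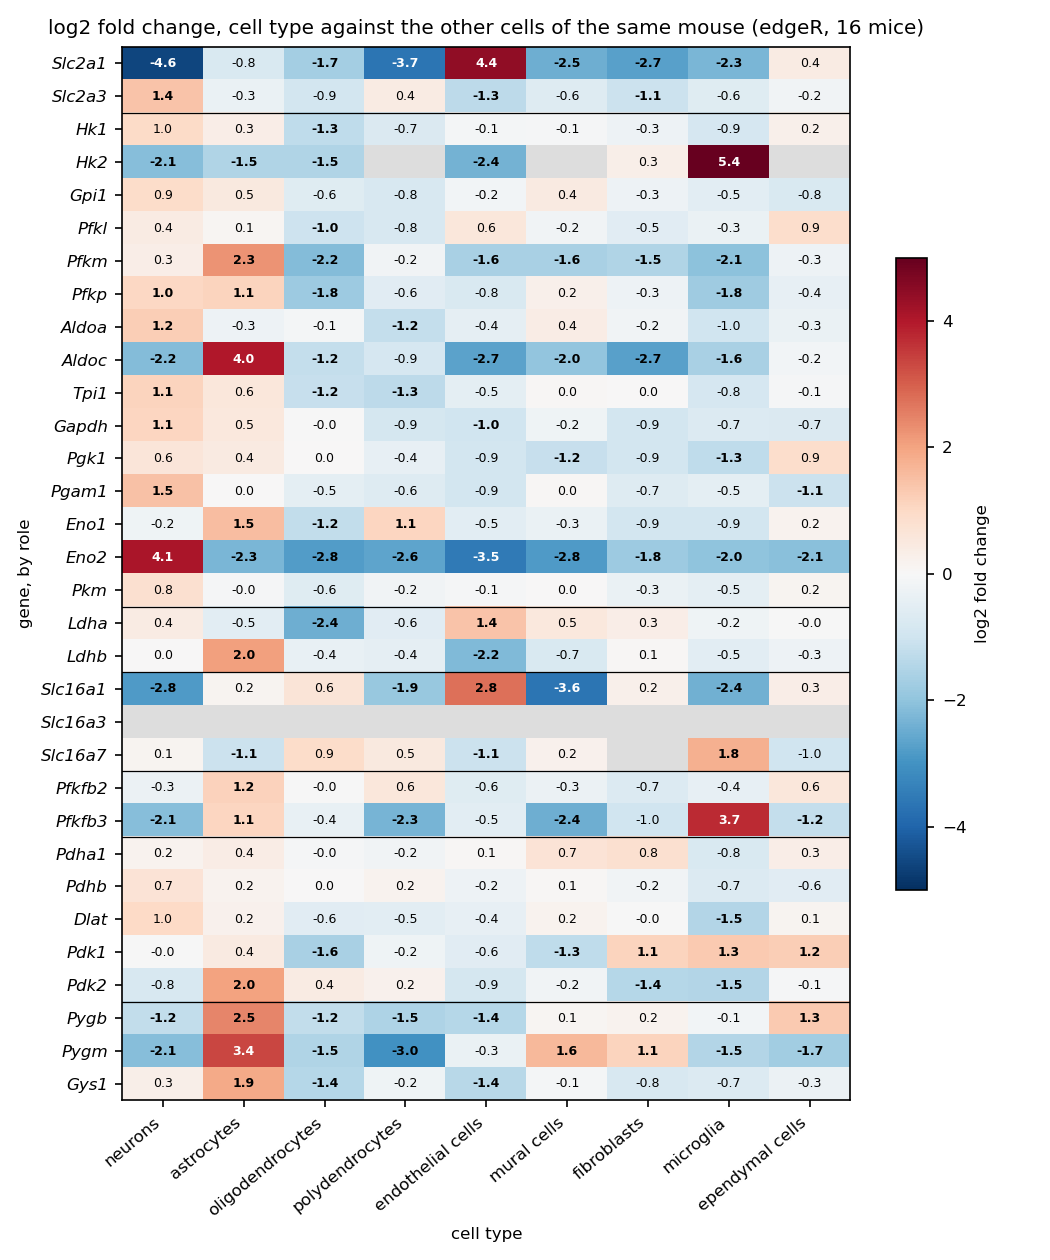
Each square gives the log2 fold change of a gene (vertical axis, grouped by role) in a cell type (horizontal axis) against the other cells of the same mouse; bold marks called values and grey marks genes that did not pass the filter. The highest values, in dark red, include *Slc2a1* in endothelial cells (4.44), *Hk2* in microglia (5.37), *Aldoc* in astrocytes (4.02) and *Eno2* in neurons (4.09).

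Glucose uptake separated vessels from neurons. *Slc2a1* in endothelial cells had 754 CPM in the lowest mouse, 1340.2 in the median mouse and 1859.7 in the highest. The lowest of these was above the highest level anywhere else, 521 in ependymal cells of S10. The log2 fold change was 4.44 (SE 0.12, adjusted p = 6.53e-25) and 4.54 without S10 and S11. Neurons held the lowest mean of *Slc2a1*, 15.7 CPM, and were called lower (log2 fold change -4.57, adjusted p = 2.02e-25). *Slc2a3*, the neuronal glucose transporter, had 34.6 to 99.7 CPM in neurons with a median of 75.6, and was called higher there (log2 fold change 1.43, SE 0.08, adjusted p = 4.27e-15). Its lowest neuronal levels were 34.6 in S11 and 51.2 in S10, below the other 14 mice, and without both the log2 fold change was 1.34. Polydendrocytes, the precursors of oligodendrocytes, came next for *Slc2a3* at 16.3 to 109.5 CPM, a range that overlapped that of neurons.

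In the glycolytic chain, hexokinase 2, which traps glucose in the cell, stood out in microglia. *Hk2* had 65.6 CPM in the lowest mouse, 119 in the median and 174 in the highest in microglia, and no library of another type exceeded 38.5. Its log2 fold change was 5.37 (SE 0.15, adjusted p = 7.88e-34) and 5.36 without S10 and S11. The cluster also held neutrophil and perivascular macrophage markers, and their part in this level was not tested. Of the phosphofructokinases, the enzymes of the committed step, *Pfkm* was higher in astrocytes at 217 to 341 CPM (log2 fold change 2.26, SE 0.07, adjusted p = 7.84e-29), above the highest neuronal library at 127. *Pfkp*, the platelet form, passed in both astrocytes (80.8 to 172, median 112) and neurons (90.2 to 132, median 110.4), and in neurons its log2 fold change of 1.02 fell to 0.98 without S10 and S11, under the size needed for a call.

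The forms of aldolase and enolase differed between neurons and astrocytes. *Aldoc*, aldolase C, had 2263 to 4584 CPM in astrocytes with a median of 3002, and its highest level elsewhere was 1087 in ependymal cells. The log2 fold change was 4.02 (SE 0.08, adjusted p = 5.16e-34). *Aldoa*, aldolase A, was higher in neurons at 489 to 830.2 (log2 fold change 1.23, SE 0.04, adjusted p = 5.41e-20), and mural cells came next, with a lower level in 16 of 16 mice but an overlapping range. *Eno2*, neuron-specific enolase, had 306 to 479 in neurons with a median of 426, against at most 103 elsewhere (log2 fold change 4.09, SE 0.07, adjusted p = 1.42e-26). *Eno1*, the common form, was higher in astrocytes at 95.7 to 364 (log2 fold change 1.54, SE 0.06) and in polydendrocytes at 82.8 to 331 (1.06, SE 0.07); in 8 of 16 mice astrocytes held more of it than polydendrocytes, so these types had no fixed order. Neurons were further called higher for *Pgam1*, phosphoglycerate mutase (17.9 to 55.1, log2 fold change 1.46), *Tpi1*, triosephosphate isomerase (241 to 355, 1.11), and *Gapdh*, glyceraldehyde phosphate dehydrogenase (79.7 to 261, 1.08). *Gapdh* has many processed copies in the genome and *Pgk1* can share reads with *Pgk1-rs7*, a near-identical copy listed with 10389 UMIs against 2651 for *Pgk1*, so the levels of both genes are uncertain.

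**Figure D2:**
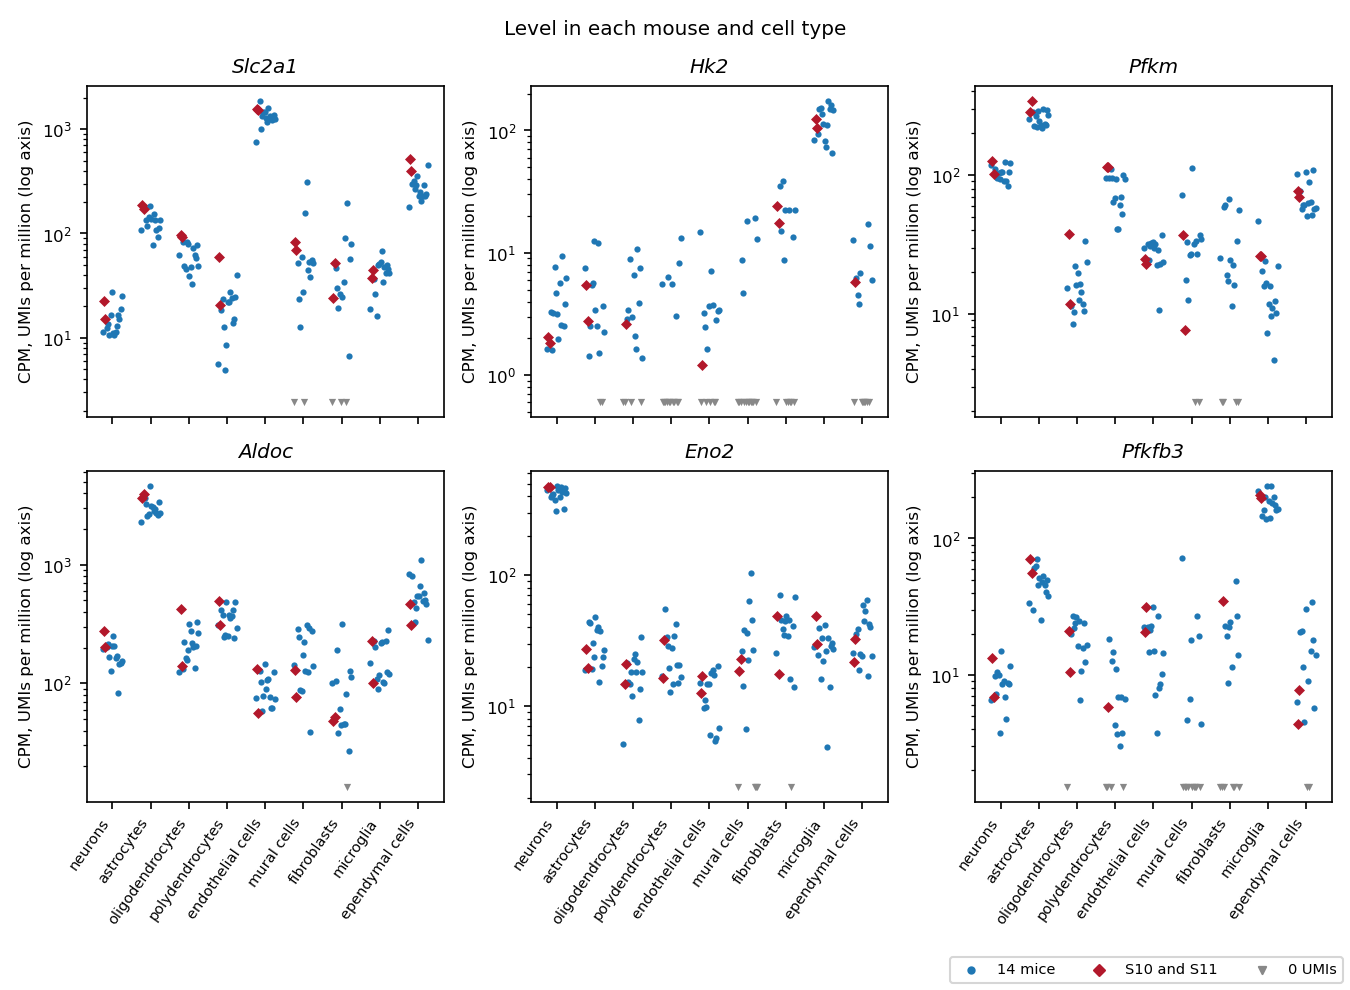
Each point is the level of a gene in 1 cell type of 1 mouse, in CPM on a log axis; red diamonds are S10 and S11 and grey triangles are libraries with 0 UMIs, drawn below the lowest measured value. The 6 genes shown are those whose lowest library in 1 type lay above the highest library of every other type. *Pfkfb3* in microglia, for example, had 139.6 as its lowest level and 71.5 as the highest elsewhere. The share of all genes with such a gap was not computed, so the 6 are not set against a background.

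Lactate metabolism placed 1 subunit in vessels and the other in astrocytes. *Ldha* codes for the subunit that favors lactate formation and *Ldhb* for the one that favors its use. *Ldha* was higher in endothelial cells at 207 to 370.0 CPM, median 283 (log2 fold change 1.43, SE 0.06, adjusted p = 5.82e-20), and lower in oligodendrocytes at 9.8 to 32.2 (log2 fold change -2.43). *Ldhb* was higher in astrocytes at 758 to 1373, median 1016 (log2 fold change 2.03, SE 0.07, adjusted p = 4.39e-27), and lower in endothelial cells at 34.3 to 121 (log2 fold change -2.19). Endothelial *Ldha* overlapped the level in mural cells, next in order, and astrocyte *Ldhb* overlapped single fibroblast libraries.

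The lactate transporters had different places. *Slc16a1*, which codes for MCT1, had 154 to 589 CPM in endothelial cells with a median of 274, and was called higher there (log2 fold change 2.76, SE 0.07, adjusted p = 3.57e-25). The highest of these was in S10, and the endothelial range overlapped that of fibroblasts, which reached 266 in S10. *Slc16a1* in neurons had 4.75 to 20.9, lower than in the other cells (log2 fold change -2.83), and mural cells were lower as well (-3.63). *Slc16a7*, which codes for the high-affinity transporter MCT2 of neurons, was called higher in microglia at 5.27 to 76.6 CPM on 113 UMIs in all (log2 fold change 1.77, SE 0.22, adjusted p = 6.09e-10). In neurons it had 5.08 to 26.3 CPM and a log2 fold change of 0.14, which did not reach the size for a call; S10 and S11 held the lowest neuronal levels, 5.12 and 5.08, under 7.70 in the lowest of the others.

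Genes that control glycolysis and pyruvate entry were called higher mainly in glia. *Pfkfb3*, which makes the activator of phosphofructokinase, was higher in microglia at 139.6 to 242 CPM, median 185 (log2 fold change 3.75, SE 0.11, adjusted p = 3.86e-33), and in astrocytes at 25.3 to 70.7 (1.06, SE 0.11); *Pfkfb2*, its relative, was higher in astrocytes alone among the types tested (47 to 95, 1.16). *Pdk2*, a brake on pyruvate entry, was higher in astrocytes at 40.4 to 101 (2.03, SE 0.10). *Pdk1*, the other kinase listed, passed in microglia (24.2 to 91.6, 1.30), ependymal cells (17.1 to 90.6, 1.22) and fibroblasts (22.5 to 147, 1.10). Glycogen genes were all higher in astrocytes. *Pygb*, brain glycogen phosphorylase, had 183 to 271 there (2.45, SE 0.08), *Pygm*, the muscle form, 55.1 to 141 (3.35, SE 0.11), and *Gys1*, glycogen synthase, 28 to 82.1 (1.88, SE 0.12). *Pygb* passed also in ependymal cells (98 to 205, 1.33). *Pygm* passed also in mural cells (0 to 101, 1.64), where 3 of 16 libraries held no UMI, and in fibroblasts (0 to 145, 1.12), where 50 UMIs were counted in all and the log2 fold change was 0.80 without S10 and S11.

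Counted per type, the calls departed most from the shares of all genes in astrocytes and oligodendrocytes. The counts of genes lower in neurons, mural cells, fibroblasts and ependymal cells lay near those shares. In neurons 7 of 31 tested were higher and 7 lower, where 13.9% and 21.2% of all genes tested were called higher and lower. In astrocytes 11 of 31 were higher and 3 lower, against 11.3% and 18.8% of all genes. In oligodendrocytes 0 of 31 were higher and 15 lower, against 10.4% and 24.3%. Polydendrocytes had 1 of 30 higher (*Eno1*) and 8 lower, against 7.45% and 14.2%. Endothelial cells had 3 of 31 higher and 10 lower, against 13.7% and 21.7%. Mural cells had 1 of 30 higher and 8 lower, against 6.99% and 25.2%. Fibroblasts had 2 of 30 higher and 6 lower, against 8.2% and 19.7%. Microglia had 4 of 31 higher and 10 lower, against 15.9% and 24.8%. Ependymal cells had 2 of 30 higher and 4 lower, against 13% and 14.7%. The median log2 fold change of the tested genes was 0.44 in astrocytes and 0.34 in neurons, and was lowest in oligodendrocytes at -0.90, where the median of all genes was -0.09. Of the genes called lower, *Eno2* was lower in 8 of 9 types, *Slc2a1* and *Aldoc* in 6, *Pfkm* and *Pygm* in 5, and *Hk2* in 4 of the 6 types where it was tested. *Gpi1*, *Pkm*, *Pdha1* and *Pdhb* were called in no type in either direction. The genes lower in neurons were *Slc2a1* (-4.57), *Slc16a1* (-2.83), *Aldoc* (-2.16), *Hk2* (-2.12), *Pfkfb3* (-2.12), *Pygm* (-2.11) and *Pygb* (-1.21). In astrocytes they were *Eno2* (-2.28), *Hk2* (-1.52) and *Slc16a7* (-1.06). The 15 lower in oligodendrocytes included *Slc2a1* (-1.71), *Pfkm* (-2.16), *Pfkp* (-1.81) and *Ldha* (-2.43). In at least 1 type, 26 of the 31 genes were called lower (83.9%), against 50.8% of all genes tested. Each lower call is against all other cells of the mouse, which include the type where the gene is highest. A gene very high in 1 type can thus be called lower in many others, and the part of this in the lower calls was not tested.

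Summed, the 32 genes made up 0.715% ± 0.094 of the UMIs of astrocytes (SD, n = 16) and 0.391% ± 0.034 of those of neurons, and the lowest astrocyte value, 0.573%, lay above the highest neuronal value, 0.449%. Oligodendrocytes stood at 0.175% ± 0.026 and microglia at 0.182% ± 0.0199. Of the astrocyte sum, *Aldoc* made up 3109.7 and *Ldhb* 1042 CPM on average, against 182 and 397 CPM in neurons. The mean differences in *Aldoc* and *Ldhb* came to more than the gap between the mean sums. Without these genes the mean sum was thus lower in astrocytes than in neurons. That order was not tested over mice. Neurons held a median of 1489 UMIs per cell and astrocytes 482, so a smaller share in neurons is not a smaller count per cell. RNA outside cells can add to these levels. Barcodes with fewer than 100 genes in the 14 other libraries were taken as free RNA, though they may include poor cells. In them *Aldoc* had 1248 ± 249 CPM and *Ldhb* 455 ± 124 (SD, n = 14). These are shares of the RNA in such barcodes and not a minimum for a cell: *Aldoc* had a mean of 182 CPM in neurons. Neurons lay at or below such levels for 10 of the 32 genes (*Aldoc*, *Hk2*, *Ldhb*, *Pdk2*, *Pfkfb3*, *Pygb*, *Pygm*, *Slc16a1*, *Slc16a3* and *Slc2a1*), astrocytes for 4, oligodendrocytes for 21 and microglia for 23; the part of free RNA in these low levels was not tested.

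Neurons and astrocytes were then compared directly, since lactate is thought to pass between them. Of 29 genes tested, 2 were higher in neurons, where 19.2% of all genes were called, and 12 were higher in astrocytes, where 16.9% were called. Higher in neurons were *Eno2* (log2 fold change 3.66) and *Slc2a3* (1.14). The largest differences toward astrocytes were *Aldoc* (-4.26, SE 0.09), *Pygm* (-3.94, SE 0.17), *Slc2a1* (-3.30, SE 0.11) and *Pygb* (-2.74, SE 0.08), lower in neurons in all 16 mice. *Slc16a1* (-2.53) and *Ldhb* (-1.55) were also lower in neurons in 16 of 16 mice, as were *Pfkfb3* (-2.58), *Pdk2* (-2.11), *Pfkm* (-1.47), *Eno1* (-1.38) and *Pfkfb2* (-1.14), while *Gys1* (-1.26) was lower in 15. *Ldha* was 174 CPM in neurons and 93.9 in astrocytes on average, a log2 difference of 0.73 (SE 0.08) under the size for a call, and higher in neurons in 16 of 16 mice. The median difference over the 29 genes was -0.20 against 0.12 for all genes. Of 28 other genes of the pathway tested, 4 were higher in neurons, among them *Pgm2l1*, *Pdp1* and *Slc2a13*, and 13 in astrocytes, led by *Phkg1*, a subunit of phosphorylase kinase, and *Ppp1r3c*, a glycogen-targeting subunit. All 14 calls among the 32 genes held without S10 and S11.

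The split between isozymes was followed as the share of a pair's UMIs taken by its second member, which does not depend on the total RNA of a type. Paired differences between neurons and each other type were tested by permutation with signs flipped over mice, 57 tests in all, and 42 passed after Benjamini-Hochberg adjustment. With 16 mice the smallest p these permutations can give is 3.05e-05. *Slc2a3* took 81.9% ± 6.31 of the *Slc2a1*/*Slc2a3* UMIs in neurons (SD, n = 16), 18.8% ± 9.51 in astrocytes and 1.24% ± 0.847 in endothelial cells, and neurons were higher in 16 of 16 mice against both (adjusted p = 0.000134, permutation test). Without S10 and S11 the neuronal share of *Slc2a3* was 83.7% ± 4.31 (n = 14), and 40 tests passed in all. Polydendrocytes at 75.9% ± 12 in 7 mice were not told apart from neurons (difference 6.45 points, SD 12.3, adjusted p = 0.31, exact permutation test). *Eno2* took 82.1% ± 4.29 of the enolase pair in neurons against 12.8% ± 5.22 in astrocytes and 12.6% ± 7.49 in polydendrocytes (adjusted p = 0.000134 for both, permutation test). *Aldoc* took 21.4% ± 4.10 of the aldolase pair in neurons against 90.9% ± 1.30 in astrocytes, and 61.9% ± 8.95 in ependymal cells. A low share was not particular to neurons. It was 25.8% ± 5.25 in endothelial cells, 22.6% ± 8.97 in mural cells (n = 14) and 21.8% ± 13.9 in fibroblasts (n = 11). Mural cells and fibroblasts were not told apart from neurons (adjusted p = 0.687 and 0.944, permutation test). Neuronal *Aldoc*, at a mean of 182 CPM, lay below the free-RNA level, and in free RNA *Aldoc* took 86.7% of the pair; the part of free RNA in this share was not tested.

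*Hk2* took 81.9% ± 8.29 of the hexokinase pair in microglia and 4.35% ± 2.67 in neurons of the same 14 mice, with neurons higher in 0 of 14 (adjusted p = 0.000331, permutation test). *Ldhb* took 69.3% ± 3.23 of the lactate dehydrogenase pair in neurons, 91.7% ± 1.86 in astrocytes, 91.0% ± 2.86 in oligodendrocytes and 22.5% ± 4.63 in endothelial cells, and in each of these comparisons all 16 mice differed the same way. In free RNA *Ldhb* took 86.4% of the pair, 1604 UMIs against 252 of *Ldha*. Both subunits lay at or below their free-RNA levels in oligodendrocytes, and *Ldhb* also did in neurons, endothelial cells and ependymal cells, and the part of free RNA in these shares was not tested. Ependymal cells, at 69.0% ± 5.14, were not told apart from neurons (difference 0.277 points, SD 6.02, adjusted p = 0.906, permutation test). *Slc16a7* took 44.2% ± 14.1 of its pair with *Slc16a1* in neurons, 14.2% ± 5.82 in oligodendrocytes and 2.18% ± 1.60 in endothelial cells in 13 mice each (adjusted p = 0.000557, permutation test). *Pfkp* took 70.7% ± 2.57 of *Pfkl*/*Pfkp* in neurons and 44.7% ± 9.09 in endothelial cells, and 51.2% ± 3.98 of *Pfkm*/*Pfkp* in neurons against 31.4% ± 5.95 in astrocytes. *Pygb* took 85.2% ± 7.42 of its pair with *Pygm* in neurons and 70.0% ± 5.71 in astrocytes in 15 mice. *Pdk2* took 37.4% ± 8.93 of its pair with *Pdk1* in neurons and 66.3% ± 9.11 in astrocytes in 14 mice. *Pfkfb3* took 20.1% ± 5.70 of its pair with *Pfkfb2* in neurons and 88.5% ± 6.31 in microglia in 15 mice. In free RNA these 3 shares were 70.8%, 68.8% and 38.3%. Neuronal *Pygb*, *Pygm*, *Pdk2*, *Pfkfb3*, *Slc2a1*, *Hk2* and *Slc16a1* lay at or below free-RNA levels, and its part in their shares was not tested.

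**Figure D3:**
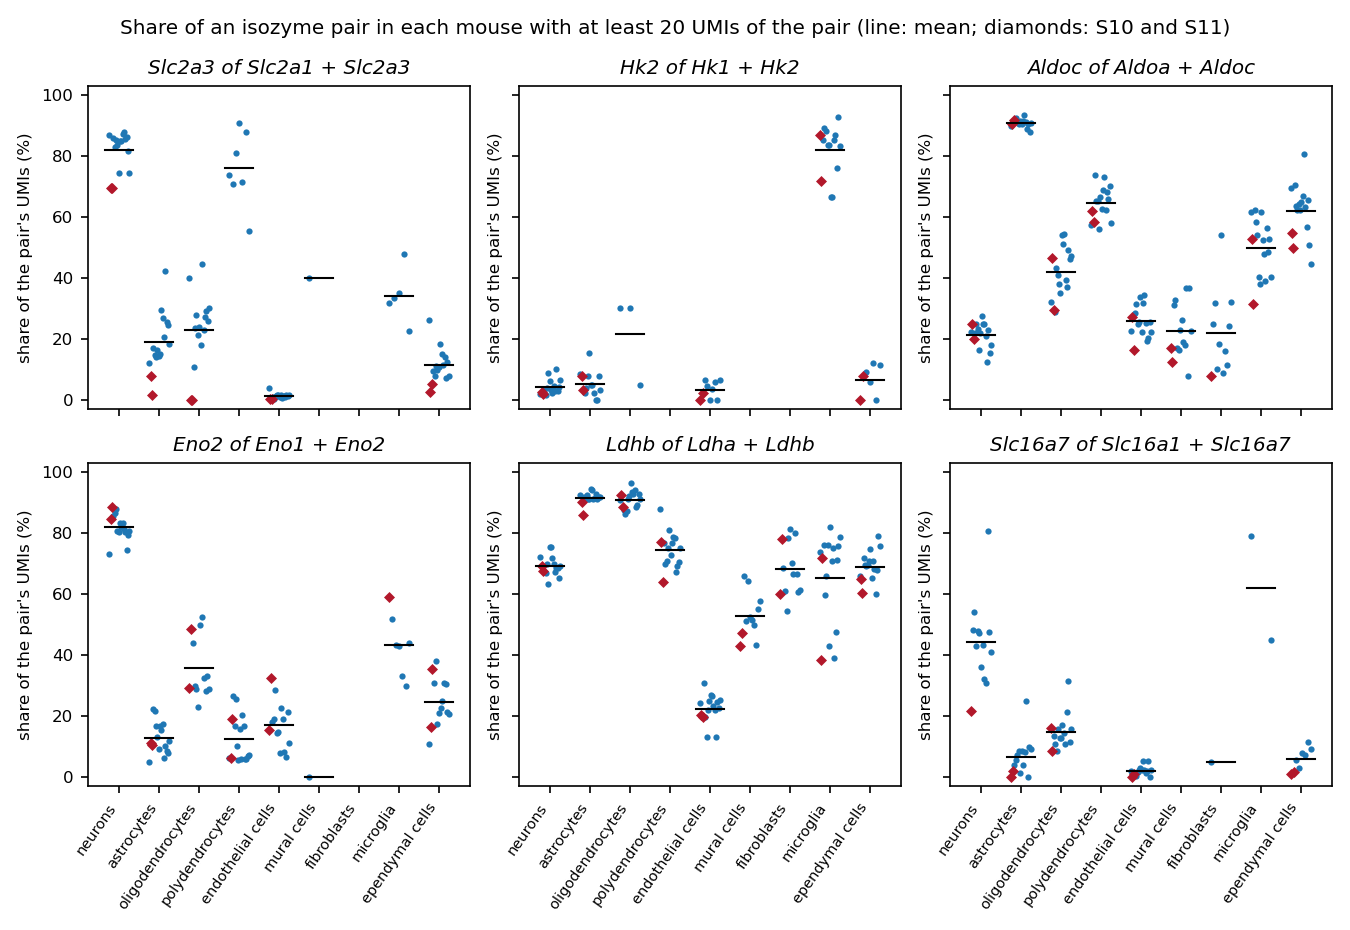
Each point is the share, in percent, that the second gene took of a pair's UMIs in 1 cell type of 1 mouse with at least 20 UMIs of the pair; the line is the mean over mice and diamonds are S10 and S11. Neurons sit near 82% for *Slc2a3* and *Eno2*, astrocytes near 91% for *Aldoc* and *Ldhb*, and microglia near 82% for *Hk2*.

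The other genes of the pathway, listed by symbol with earlier results known, were tested in the same fits. Of all genes, 11.3% were higher and 18.8% lower in astrocytes, 13.7% and 21.7% in endothelial cells and 15.9% and 24.8% in microglia. The shares were 10.4% and 24.3% in oligodendrocytes, 13% and 14.7% in ependymal cells and 13.9% and 21.2% in neurons. In polydendrocytes they were 7.45% and 14.2%, in fibroblasts 8.2% and 19.7% and in mural cells 6.99% and 25.2%. In astrocytes 12 of 34 were higher and 5 lower, with *Phkg1*, *Phka1*, *Ppp1r3c* and *Pgm2* (log2 fold changes 4.53, 3.37, 3.37 and 2.86) in the lead; *Phkg1* and *Phka1* code for subunits of phosphorylase kinase and *Ppp1r3c* for a subunit that brings a phosphatase to glycogen. In endothelial cells 5 of 33 were higher and 11 lower, led by *Bsg* (4.59), which codes for the partner protein that brings MCT1 to the membrane, and *Slc16a4* (3.81). In microglia 6 of 33 were higher and 13 lower, led by *Slc2a5*, a fructose transporter (5.36), *Hk3* (4.86) and *Slc16a6* (4.21). In oligodendrocytes 4 of 31 were higher, led by *Gpd1* (3.34) and *Bpgm* (2.93), and 12 lower. In ependymal cells 5 of 33 were higher, led by *Hkdc1* (4.16), and 6 lower. In neurons 5 of 33 were higher, led by *Pgm2l1* (2.81), and 10 lower. Polydendrocytes had 0 of 31 higher and 10 lower, fibroblasts 2 and 7, and mural cells 2 and 12, with *Slc2a4*, the insulin-responsive glucose transporter, at 3.96 in mural cells. The counts of genes higher in endothelial cells, microglia, ependymal cells and neurons lay near the shares of all genes.

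Tamoxifen and the loss of *Esr1* were compared over mice in each cell type and in all kept cells together, by edgeR with 1 fit of the 4 groups. No gene of the 32 passed an adjusted p of 0.05 in any of the 223 gene-by-type tests of any of the 5 contrasts, and DESeq2 called 0 as well. Over all genes, edgeR called 0 (0% of those tested) in every contrast and type except for 1 of 12439 genes in neurons between *Esr1* cKO and wild-type mice on tamoxifen (0.00804%), which was not among the 32. At an unadjusted p under 0.05 the genes reached 7 of 223 for tamoxifen in wild-type mice, where 2.98% of all genes did, 9 for tamoxifen in *Esr1* cKO mice (3.50%), 9 for the interaction of both (4.73%), 33 (14.8%) for *Esr1* cKO against wild-type mice on oil (5.05%) and 5 for the same on tamoxifen (3.08%). In simulated data the neuronal group fit recovered 50% of genes changed by 1 on the log2 scale and 91.3% of those changed by 2. The astrocyte group fit recovered 34% and 83.3%, so smaller changes could go unseen. The other types were not simulated. The smallest adjusted p among the 32 genes was 0.622.

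In wild-type mice, tamoxifen against oil gave no called gene. *Gapdh* in neurons had 261, 161 and 259 CPM on oil and 150.1, 148, 79.7, 159 and 192 on tamoxifen, ranges that overlapped (log2 fold change -0.66, SE 0.27, adjusted p = 1, edgeR). Without S10 and S11 it was -0.48. In endothelial cells it had 74.6, 61.7 and 70.7 on oil against 27.1 to 53.4 on tamoxifen, with no overlap (-0.78, SE 0.30, adjusted p = 1). The mean endothelial level of *Gapdh* lay below that in free RNA, 65.7 ± 24.3 CPM (SD, n = 14). Of the genes named by group in this and the following paragraphs, the mean levels of 5 of 10 in endothelial cells (*Gapdh*, *Eno1*, *Pgk1*, *Pygm* and *Aldoc*), of *Eno2* in astrocytes and of *Pygm* in neurons lay at or below free RNA, and its part in their contrasts was not tested. *Slc16a7* in neurons had 9.79, 7.70 and 5.12 on oil and 12.5 to 19.0 on tamoxifen, again with no overlap (1.02, SE 0.44, adjusted p = 1, edgeR), where the lowest oil mouse was S10. Such levels rest on few UMIs and are limited by depth. The share of all genes with such gaps is not given, so no gap between groups is set against a background. *Pfkm* in neurons (-0.24), *Pgk1* (-0.55), *Eno2* (0.58) and *Gapdh* (-0.41) in astrocytes, and *Slc16a1* (-0.54) and *Pdha1* (-0.33) in endothelial cells had the next smallest p-values. *Slc16a1* moved to -0.13 and *Pdha1* to 0.10 without S10 and S11.

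In *Esr1* cKO mice, tamoxifen against oil gave *Ldha* in endothelial cells as the gene with the smallest p of those 3 types: 259.7, 219, 273 and 225 CPM on oil and 317, 370.0, 334 and 298 on tamoxifen, with no overlap (log2 fold change 0.43, SE 0.17, adjusted p = 1, edgeR). *Pdha1* in neurons had 65.2 to 79.9 on oil and 75.0 to 99.2 on tamoxifen (0.33, SE 0.14), *Pygm* in neurons 2.45 to 13.05 and 1.85 to 4.75 (-1.43, SE 0.65), and *Pgam1* in neurons 17.9 to 32.1 and 23.7 to 55.1 (0.50, SE 0.24), and all 3 ranges overlapped. *Hk1* (0.48), *Eno1* (0.50) and *Gpi1* (0.29) in astrocytes, and *Pygm* (-0.84) and *Pdhb* (-0.39) in endothelial cells followed. The difference between genotypes in the tamoxifen effect was tested itself, with an interaction term. The smallest p-values in neurons were those of *Slc16a7* (-1.53, SE 0.58), *Pdha1* (0.46) and *Ldha* (0.41). In astrocytes they were those of *Pgk1* (1.004), *Hk1* (0.73) and *Eno1* (0.81), and in endothelial cells of *Gapdh* (0.87), *Pfkl* (0.74) and *Eno1* (0.81). The adjusted p of all 9 lay between 0.922 and 0.972 (edgeR). Without S10 and S11, in the same order, the values were -1.05, 0.51 and 0.23 in neurons and 1.09, 0.68 and 1.04 in astrocytes. In endothelial cells they were 0.67, 0.31 and 1.16.

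On oil, *Esr1* cKO mice were compared with wild-type mice, and here the 33 tests with an unadjusted p under 0.05 were more than in the other contrasts. All of them except *Slc16a7* in neurons and in all kept cells were lower in *Esr1* cKO mice. Several of these tests concern the same gene in different cells of the same mice and are not independent. In all kept cells *Gapdh* had 160.1, 104 and 151 CPM in the wild-type group, against 88.5, 93.3, 91.1 and 49.0 CPM in *Esr1* cKO mice (log2 fold change -0.72, SE 0.30). *Pgk1* had 87.9, 49.4 and 62.8 against 41.4, 49.9, 38.4 and 20.8 (-0.75, SE 0.25), and *Eno1* had 182, 120.3 and 103 against 71.3, 105, 74.8 and 44.9 (-0.79, SE 0.28), each with adjusted p = 0.832 by edgeR. The groups did not overlap for *Gapdh* and overlapped for the other two. *Pgk1-rs7*, the copy that can share reads with *Pgk1*, had a mean of 194 CPM in the wild-type group on oil, against 155 CPM in the *Esr1* cKO group on oil. By type, *Pgk1* in astrocytes was at -1.05 (SE 0.30), *Gapdh* at -0.87 and *Eno1* at -0.67. Without S10 and S11 they were at -1.11, -0.69 and -0.78. In endothelial cells *Gapdh* was at -0.85, *Slc16a1* at -0.80 and *Eno1* at -0.84, and without S10 and S11 at -0.79, -0.40 and -0.93. In neurons *Gapdh* was at -0.77, *Pfkm* at -0.35 and *Slc16a7* at 1.12, and without S10 and S11 at -0.59, -0.27 and 0.94. The smallest p over all types was that of *Aldoa* in polydendrocytes (-0.87, SE 0.19, adjusted p = 0.622, edgeR). Without S10 and S11, 22 of 229 tests (9.61%) had an unadjusted p under 0.05, against 6.29% of all genes. In all kept cells the genes under this p then went from 7 of 32 (21.9%, against 5.80% of all genes) to 3. The median log2 fold change over all 32 genes went from -0.13 to -0.06, and that over all genes tested from 0.03 to 0.02. The count of such tests varied with single mice left out. It was lowest, at 16 (7.17%, against 3.96% of all genes), without *Esr1* cKO oil replicate 4, and 17 (7.36%, against 4.19%) without S10 alone. It was highest, at 37 (16.7%, against 6.79%), without *Esr1* cKO oil replicate 3. Wild-type oil replicate 1 held the highest level of all 3 genes among oil mice and *Esr1* cKO oil replicate 4, which is S14, the lowest. S14 also had the highest mitochondrial share of the 16 libraries (9.21%), the lowest share of UMIs in kept cells (48.9%) and the most called doublets (2.36% of its cells), and is among the libraries with shared barcodes. Wild-type oil replicate 1 was the smallest library, with 1746 cells. Without S14 the log2 fold changes in all kept cells were -0.54 for *Gapdh*, -0.55 for *Pgk1* and -0.61 for *Eno1*, and without wild-type oil replicate 1 they were -0.66, -0.57 and -0.57. The mean summed share was 0.391% ± 0.032 in wild-type oil mice (SD, n = 3), 0.317% ± 0.052 in *Esr1* cKO oil mice (n = 4), 0.379% ± 0.038 in wild-type tamoxifen mice (n = 5) and 0.353% ± 0.023 in *Esr1* cKO tamoxifen mice (n = 4). In the same mice, the summed markers of astrocytes in all kept cells ran from 2984 to 4023 CPM in wild-type oil mice and from 1845 to 3099.5 in *Esr1* cKO oil mice, and the summed markers of oligodendrocytes from 11534 to 16158 and from 16132 to 28274; their part in the differences over all cells was not tested. The contrast of genotypes on oil and that of tamoxifen in wild-type mice share the same 3 wild-type oil mice.

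**Figure D4:**
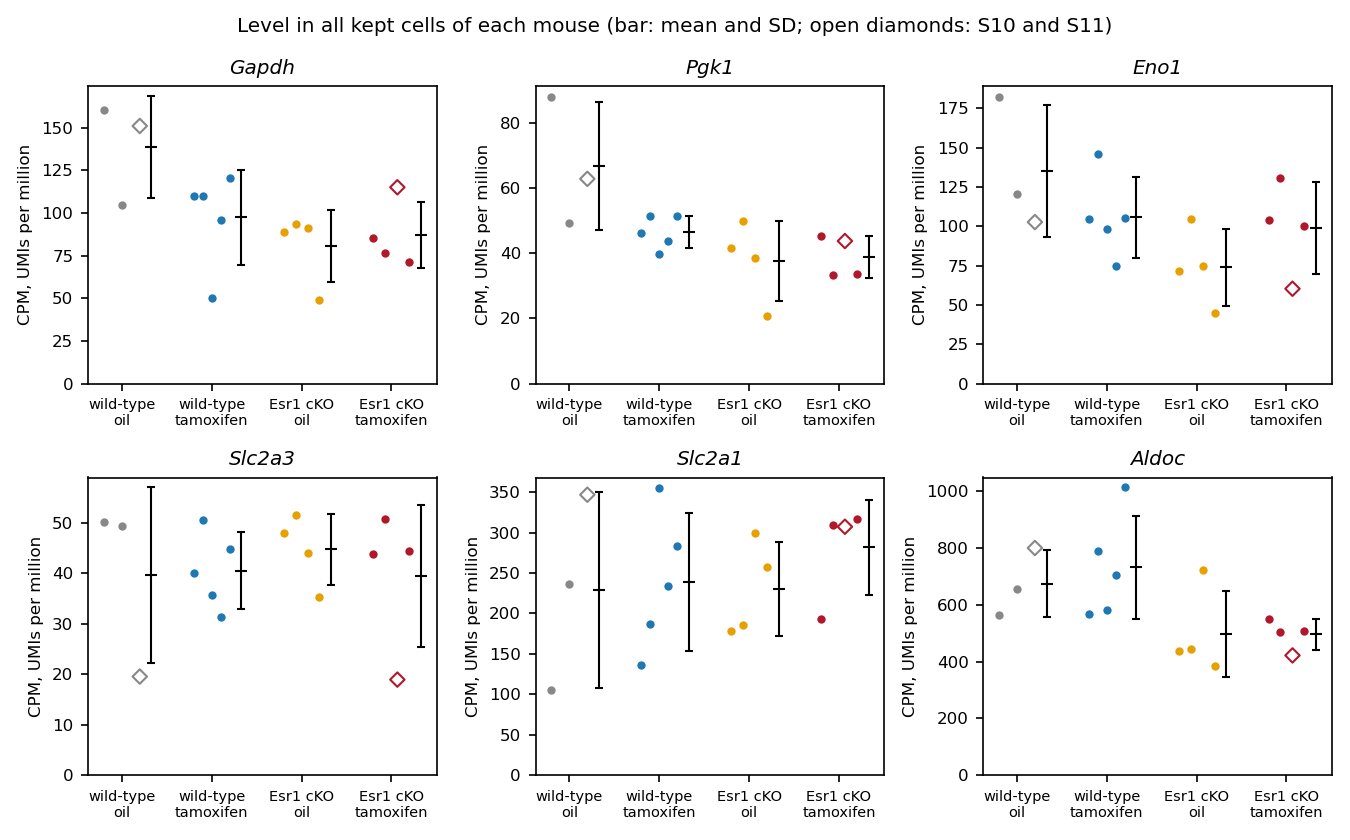
Each point is the level of a gene in all kept cells of 1 mouse, in CPM, by group; the bar is the mean with its SD and open diamonds are S10 and S11. *Gapdh* lies at 104 to 160.1 in wild-type oil mice and at 49.0 to 93.3 in *Esr1* cKO oil mice, and *Slc2a3* is lowest in S10 and S11.

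On tamoxifen, *Esr1* cKO against wild-type mice gave *Pygm* in neurons at -1.52 (SE 0.63; 1.85 to 4.75 CPM against 6.41 to 14.3, with no overlap), *Pdha1* in neurons at 0.30 and *Gys1* in neurons at 0.50. *Hk1* (0.39), *Pdhb* (-0.44) and *Pkm* (-0.30) followed in astrocytes, and *Aldoc* (-0.62), *Pgk1* (-0.56) and *Pdha1* (0.45) in endothelial cells. None passed adjustment. The other pathway genes gave 0 calls in any contrast. In all kept cells the larger log2 fold changes among them included those of *Stbd1*, a glycogen-binding protein (-1.13 for tamoxifen in wild-type mice, 0.93 in *Esr1* cKO mice, adjusted p = 1 for both, edgeR), *Fbp1* and *Slc2a5* in wild-type and *Bsg*, *Pdk4* and *Mpc1* in *Esr1* cKO mice.

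**Figure D5:**
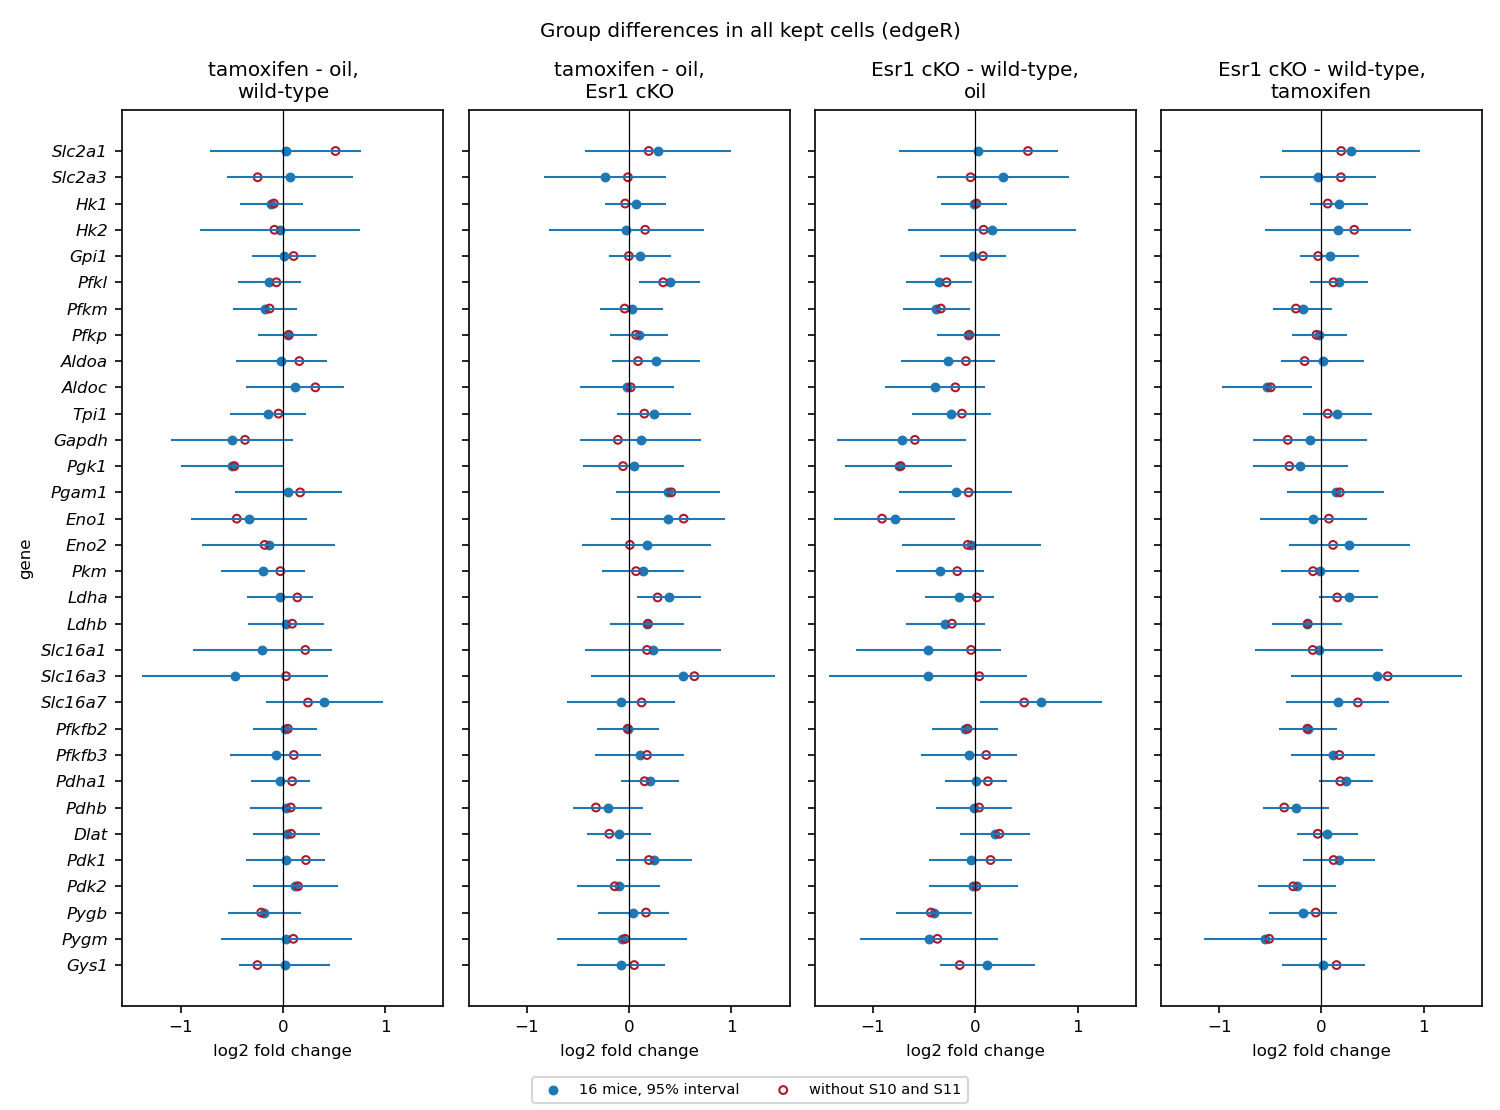
Points are log2 fold changes of the 32 genes (vertical axis) in all kept cells with their 95% intervals, 1 panel for each of 4 contrasts; open red circles leave out S10 and S11. In the panel of *Esr1* cKO against wild-type mice on oil, 7 of 32 points lie above 0, and 13 of the open circles do.

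The spread between mice of a group differed among the 32 genes. The biological coefficient of variation, edgeR's estimate of the spread between mice beyond counting error, had a median of 0.176 over the 30 genes in the neuronal fit and 0.189 over all genes, and in astrocytes 0.203 over 29 and 0.195. In neurons the steadiest were *Pfkl* (0.0905), *Pdk1* (0.106) and *Pdha1* (0.109), and the most variable *Pygm* (0.454), *Gapdh* (0.267) and *Aldoc* (0.267). In astrocytes the steadiest were *Hk1* (0.136), *Pygb* (0.140) and *Pdha1* (0.141), and the most variable *Slc2a3* (0.375), *Pgam1* (0.307) and *Gapdh* (0.283). S10 and S11 both lay below the other 14 mice in all kept cells for *Slc2a3*, *Slc16a7* and *Gys1*, and for no other gene of the 32 did both lie beyond the other 14 on the same side. *Slc2a3* had 19.5 and 18.9 CPM there against 31.4 to 51.5 in the others. By type, both were below the others for *Slc2a3* in neurons, oligodendrocytes, polydendrocytes and microglia, for *Slc16a7* and *Pygm* in neurons and for *Pygb* in polydendrocytes and microglia. They were above the others for *Gpi1* and *Slc16a1* in astrocytes, *Slc2a1* in oligodendrocytes, *Gpi1* and *Pfkm* in polydendrocytes and *Pdhb* in fibroblasts. The share of all genes for which S10 and S11 lay beyond the other 14 was not computed. These genes are therefore not set against a background.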

How the data were processed

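Drop-seq libraries of the hypothalamus and preoptic area of 16 mice were read as UMI counts per gene and barcode. The deposited UMI counts are whole numbers with no normalization by the authors. The submitters' processing notes name STAR 2.6 and the build mm10; the annotation, the counting program and its strand setting are not given in the sources used here, so reads of a gene and an overlapping antisense gene may not be told apart. The 32 genes, the other pathway genes and the tests were chosen with earlier results of these data known.

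Barcodes were kept as cells, 55675 in all, where the gene number lay above 200 and below 4000 and mitochondrial UMIs made up less than 15%. Scrublet in scanpy 1.11.5 called 476 doublets, which were kept and removed in an alternative. Cells were integrated and clustered with Seurat 5.3.0 on 2000 variable genes less the 4 that are among the 32 (30 anchor dimensions, 20 principal components, resolution 0.05), and clusters were named from marker genes, with 1 tie between endothelial and mural markers settled by the share of each list. Each mouse is a replicate; cells are not. UMIs were summed per mouse and type (at least 10 cells) and tested with edgeR 4.0.16 (TMM, filterByExpr, quasi-likelihood, two-sided) in R 4.3.3, with the library as a block between cell types of the same mice. A gene was called at an adjusted p under 0.05 and, between types, a log2 fold change of at least 1 in size. Isozyme shares used mice with at least 20 UMIs of the pair in both types and two-sided sign-flip permutations (scipy 1.17.1). Genes named by group are the 3 with the smallest p in neurons, astrocytes and endothelial cells for each contrast; those named by cell type are the called ones. In data simulated on these libraries, 100% of genes changed by 1 to 3 on the log2 scale had an adjusted p under 0.05 in the type fits of neurons and astrocytes. The size needed for a call was not applied there. For a change of 1 the median estimate was 0.996 in neurons and 1.00 in astrocytes, so genes near this size can miss the call. Alternatives were the removal of S10 and S11 or of single mice, DESeq2 1.42.0, its size factors, no filter on low counts, doublets removed, cells with more than 500 genes, clustering without anchors and with the genes as features, fours of library numbers as a term, fits of only the groups compared and at least 50 UMIs of a pair. Removal of cells with shared barcodes and of S13 to S16 was added after the data were seen. Mice were handled 4 a day, but the labels give no days, so no day was fitted.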

Additional observations from a re-analysis of the deposited data

Results flagged for a closer look

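Among the group contrasts and sums, 108 groups of 4 or 5 mice were examined for a mouse far from the others of its group, and 5 had one. Chance alone marks about 1 in 20 groups. *Pdha1*, a subunit of pyruvate dehydrogenase, had 79.9 CPM in neurons of *Esr1* cKO oil replicate 1 against 65.2 to 67.5 in the other 3 mice, and 74.2 in endothelial cells of wild-type tamoxifen replicate 2 against 49.2 to 53.6 in the other 4. *Pygm*, muscle glycogen phosphorylase, had 14.3 in neurons of wild-type tamoxifen replicate 3 against 6.41 to 8.45. *Gys1*, glycogen synthase, had 18.5 in neurons of *Esr1* cKO tamoxifen replicate 3, which is S11, against 30.9 to 31.5. The sum of the 32 genes in mural cells was 0.300% of UMIs in *Esr1* cKO tamoxifen replicate 1 against 0.242% to 0.247% in the other 3 mice. The 5 values were marked because the gap to the nearest mouse took up most of the range of the group.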

How the results depend on the processing

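Over 25 counts of called genes or tests, 600 of 632 recomputed values stayed within 1.5 times the reported count. The number lower in astrocytes, reported as 3, was 1 with cells of more than 500 genes or without S13 to S16, and 1 to 3 with single mice left out, the 1 being without wild-type tamoxifen replicate 5. Oligodendrocytes had 1 gene higher in place of 0 without S13 to S16. *Eno1* in polydendrocytes was not called with DESeq2, with DESeq2 size factors or with no filter on low counts, so that 0 genes were higher there; its log2 fold change was 0.95, 0.95 and 0.93 in these, against 1.06, just under the size for a call. Likewise just under 1 were *Pfkp* in neurons (0.98 to 0.99 with DESeq2, its size factors, no filter or without S10 and S11, and 0.976 to 0.998 without *Esr1* cKO oil replicate 1 or 2 or S11), *Pfkp* in astrocytes without S13 to S16 (0.98), *Pfkfb2* in astrocytes with cells of more than 500 genes (0.93) and *Pfkfb3* in astrocytes with no filter (0.96). In fibroblasts, where *Pdk1* and *Pygm* were called higher, 1 was called without S10 and S11, with doublets removed, with cells of more than 500 genes or without S13 to S16, and 0 with DESeq2, its size factors, no filter, clustering without anchors or cells with shared barcodes removed; single mice left out gave 0 to 2, the 0 being without wild-type oil replicate 3, which is S10. Genes lower in fibroblasts, reported as 6, were 12 with DESeq2 or no filter, 11 with DESeq2 size factors, 10 with doublets or shared-barcode cells removed and 5 to 10 with single mice left out, the 10 being without wild-type tamoxifen replicate 1 or 4 or *Esr1* cKO oil replicate 1. Isozyme tests that passed fell from 42 to 22 with at least 50 UMIs of a pair, where fewer mice and types entered. The cause of the other changes was not tested.

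Of 1200 values of genes named by group, 1197 kept their direction. *Pdha1* in endothelial cells on tamoxifen in wild-type mice went from -0.33 to 0.10 without S10 and S11 and lay between -0.51 and 0.12 with single mice left out, the 0.12 being without wild-type oil replicate 3. *Pkm* in astrocytes between genotypes on tamoxifen went from -0.30 to 0.043 with cells of more than 500 genes. Of 1232 isozyme values, 10 lost and 4 gained an adjusted p under 0.05 (permutation test). Lost for neurons were *Aldoa*/*Aldoc* and *Pfkfb2*/*Pfkfb3* against endothelial cells, *Pfkl*/*Pfkp* against astrocytes and *Ldha*/*Ldhb* against mural cells. *Pfkm*/*Pfkp* and *Pdk1*/*Pdk2* against ependymal cells were lost as well. The 4 gained were *Pfkm*/*Pfkp* against endothelial cells. Isozyme differences that changed sign were ones that had not passed the test. *Aldoa*/*Aldoc* between neurons and mural cells, -1.55 points, ran from -2.85 to 0.199 with single mice left out. *Aldoa*/*Aldoc* between neurons and fibroblasts, -0.377, was 3.25 with cells of more than 500 genes and -2.03 to 2.27 with single mice left out. *Ldha*/*Ldhb* between neurons and fibroblasts, 0.677, was -0.289 without S13 to S16 and -0.0344 to 1.68 with single mice left out. *Ldha*/*Ldhb* between neurons and ependymal cells, 0.277, was -0.511 without S10 and S11, -0.233 with at least 50 UMIs and -0.283 to 1.20 with single mice left out. *Pfkm*/*Pfkp* between neurons and oligodendrocytes, 1.32, ran from -2.65 to 3.63 with single mice left out. All 349 values of the 14 genes called between neurons and astrocytes kept their call. No paired analysis was possible because the labels give no replicate numbers, and those used here only follow the order of the libraries. With successive fours of library numbers as a term in the fit, 0 of the 32 genes were called in any of the 5 contrasts. Between genotypes on oil, 33 of 223 tests again had an unadjusted p under 0.05 in that fit. The same count was 33 of 223 with shared-barcode cells removed. Without S13 to S16 it fell to 11 of 204 (5.39%, against 3.46% of all genes). In all kept cells the log2 fold changes between genotypes on oil were then -0.55 for *Gapdh*, -0.56 for *Pgk1* and -0.62 for *Eno1*. Since no wild-type oil mouse is among S13 to S16, contrasts with that group are not balanced over this set. Group contrasts rest on 3 to 5 mice a group, and genes at a few CPM, such as *Slc16a3*, *Slc16a7* and neuronal *Pygm*, are limited by depth.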
